A study of Mus musculus with 4 samples.

Results

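Hypoxia was compared with normoxia in cells stimulated with poly I:C, across all genes with a single symbol whose intensity reached 64 on either of the poly I:C arrays, and 2274 of 22254 genes met this rule. Each value below is the log2 of the intensity on the array labelled hypoxia, poly I:C, minus the log2 of the intensity on the array labelled normoxia, poly I:C. Pairs of intensities written as one against another are hypoxia against normoxia, with poly I:C unless media is named, and a value after them in brackets is the log2 difference. The cells came from bone marrow of C57Bl/6 mice and were differentiated with GM-CSF, a culture step shared by all 4 conditions of the study. The conditions lasted 16 h and crossed oxygen (normoxia or hypoxia) with stimulation (media alone or 10 µg/ml of poly I:C). The labels state hypoxia as 0.5% and do not name the gas. One Affymetrix Mouse Gene ST 1.0 array was hybridised with total RNA per condition, so there is no replicate, no test and no error for any difference, and precision is limited by how few arrays there are. The labels do not say how many mice gave the cells or whether their marrow was pooled.

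Oxygen is read in cells by prolyl hydroxylases, which mark the alpha subunit of hypoxia-inducible factors (HIF) for degradation as long as oxygen is at hand. When oxygen is low, HIF accumulates and drives genes for glucose uptake, glycolysis, lactate export, blood vessel growth and the hydroxylases themselves. Poly I:C, a synthetic mimic of double-stranded viral RNA, is sensed by Toll-like receptor 3 in endosomes and by RIG-I-like receptors in the cytosol, setting off type I interferons, interferon-stimulated genes, NF-kB targets and maturation of dendritic cells. In macrophages and dendritic cells HIF-1 can also be raised by microbial stimuli at ambient oxygen.

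The arrays had median intensities of 3.90 to 4.09 over all probe sets, and between 1915 and 2053 genes reached 64 on each. The labelled cell type was checked against marker genes. Itgax, which encodes CD11c, read 268 against 328, and the MHC class II genes H2-Aa and Cd74 read 1345 against 1009 and 1128 against 772. Of 14 dendritic cell markers 4 reached the floor, while the defining markers Flt3, Zbtb46, Cd209a, Xcr1 and Clec9a stayed under 10 on both arrays. Of 17 macrophage markers 13 reached it, among them Lyz2 at 3062 against 2856 and Csf1r at 554 against 448. Macrophage markers were thus the better represented, and these values do not settle which cells made up the cultures. The summed level of the macrophage list was 8198 in hypoxia and 7920 in normoxia, and that of the dendritic cell list 2890 and 2405. No marker of B cells, T and natural killer cells or mast cells reached the floor. In other lists 2 neutrophil and precursor markers and 2 eosinophil markers reached it. So did 1 marker each of plasmacytoid dendritic cells, of the erythroid, megakaryocyte and platelet list, and of stromal cells. In bulk RNA, fewer cells of a type and less RNA per cell cannot be told apart.

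The poly I:C arrays correlated with r = 0.884 across the 2274 genes on the log2 scale, a description across genes and not replicates. Of these genes 1613, or 70.9%, differed by less than 0.5 on the log2 scale, and the median difference was -0.03. At a threshold of 2-fold, 102 genes (4.49%) were higher in hypoxia and 73 (3.21%) were lower, 7.7% in all. Both arrays read 64 or more for 38 of the higher genes and 22 of the lower genes, and the others entered only through the array on which they were high, which favours a call in that direction. Values crossed the threshold gradually. The 5 genes just inside it on the higher side lay between 1.0 and 1.02 and included Il15, and the 5 just outside lay between 0.98 and 1.0 and included Ptgs2 and the hexokinase gene Hk1. On the lower side the nearest called genes, among them Alas1 and Itgal, lay between -1.01 and -1.0, and the nearest uncalled ones, among them Hif1a and the chemokine gene Ccl3, between -1.0 and -0.99.

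**Figure D1:**
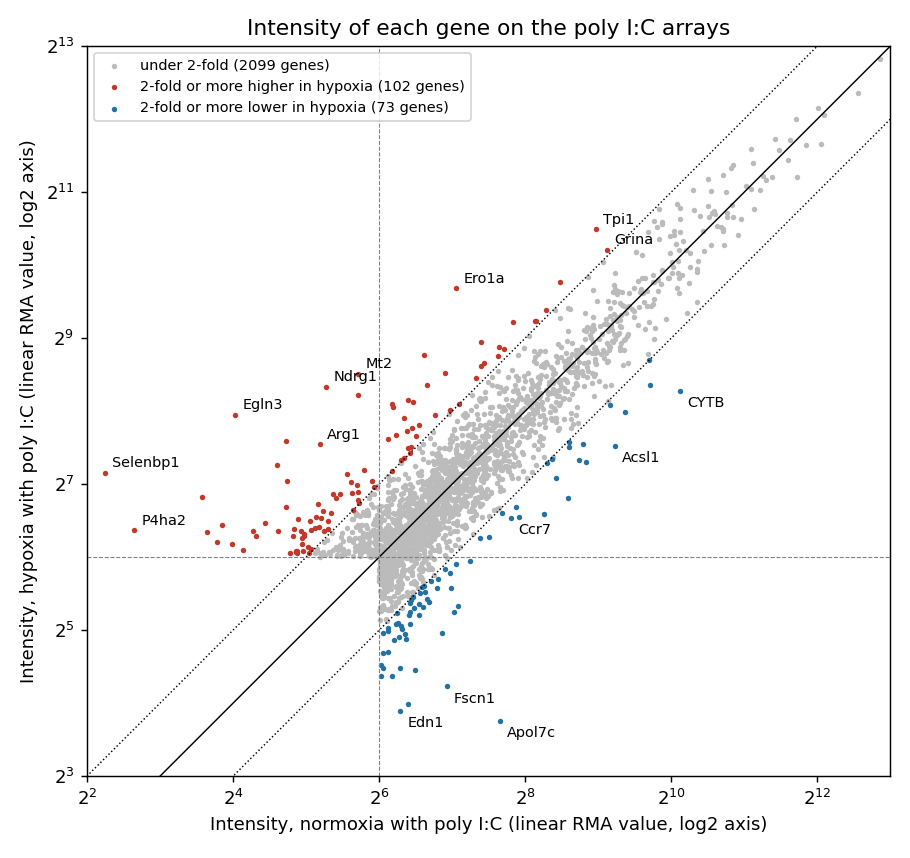
Intensity of each of the 2274 genes with poly I:C in normoxia (horizontal, log2 axis) and hypoxia (vertical, log2 axis), with 1 array per axis. Dotted lines mark 2-fold and dashed lines the floor of 64; 102 genes lie above the upper dotted line and 73 below the lower one, and many of them are under the floor on the array where they are low.

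Listed targets of HIF, 2 oxygen-sensing hydroxylase genes among them, led the higher side. Of 12 listed genes of oxygen sensing and HIF subunits 4 were tested and 2 were higher, both under 64 in normoxia. The median of these 4 was 1.46, and the list median was 0.65 with a floor of 32 and 0.34 with no floor. Of 66 HIF target genes listed, 42 reached the floor, and 30 of these were higher in hypoxia and 1 was lower. The shares were 71.4% and 2.38%, against 4.49% and 3.21% of all tested genes. Members of the list were chosen with earlier results of these data known, so these shares describe the list and are no independent check. The median log2 difference was 1.38 against -0.03 for all genes tested. Of the 42, 20 read under 64 in normoxia and 1 in hypoxia, which favours a call on the higher side. With no floor the list median was 1.17. A further 24 listed genes stayed under the floor on both poly I:C arrays, among them Adm and Car9. The prolyl hydroxylase gene Egln3 read 247 in hypoxia with poly I:C, 16.3 in normoxia with poly I:C, 506 in hypoxia in media and 3.81 in normoxia in media, and its difference with poly I:C was 3.92. Both hypoxic arrays were thus far above both normoxic ones, and the hypoxic array in media was the highest. Egln1, the main oxygen-sensing prolyl hydroxylase gene, read 132 and 26.6 with poly I:C and 132 and 21.5 in media (difference with poly I:C 2.31). Hif1a itself, which encodes the HIF-1 alpha subunit, went the other way at 166 against 332, a difference of -1.0 that lay just under the threshold in size, and it stood at 82.7 against 277 in media. Cited2, which competes with HIF for its coactivator, read 227 against 149.8 (0.60).

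Selenbp1, which encodes a selenium-binding protein with methanethiol oxidase activity, had the largest increase. It read 143 in hypoxia with poly I:C and 4.73 in normoxia with poly I:C, and 113 and 4.70 in the corresponding media conditions, so its normoxic signal was close to the median of the array. The difference was 4.91 with poly I:C and 4.59 in media. Selenbp2 is a close copy of this gene, and the probe set may read both. Hilpda, whose product restrains lipolysis at lipid droplets, read 114 against 11.9 (3.26), and the stress gene Ndrg1 read 323 against 38.8 (3.06). Further HIF targets at 2-fold or more were Ankrd37 (2.08), the early response gene Ier3 (2.19), the cytokine-like Mif (595 against 229, 1.38, with 3 probe sets between 1.32 and 1.38), the cyclin gene Ccng2 (1.25), the clock repressor gene Bhlhe41 (1.20), Anxa2 (1.09) and Insig2, a brake on sterol synthesis (1.08). The members that stayed under 2-fold were mostly bright in both conditions. The glucose transporter gene Slc2a1 read 668 against 340.2 (0.97), Pgk1 read 2078 against 1257 (0.73), the chemokine receptor gene Cxcr4 read 345 against 239 (0.53) and the lipid droplet coat gene Plin2 read 305 against 327 (-0.10).

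Genes along glycolysis, from hexokinase to lactate export, were on the higher side. Of 21 tested genes of glycolysis, pyruvate and lactate, 8 were higher (38.1%, against 4.49% of all tested genes) and none was lower. All 21 had a difference above 0, and the median was 0.93. Hexokinase 2 (Hk2) read 329 against 101 (1.70), phosphofructokinase (Pfkl) 212 against 83.2 (1.35), aldolase C (Aldoc) 87.0 against 14.4 (2.59) and glucose phosphate isomerase (Gpi1) 872 against 357 (1.29). Triose phosphate isomerase (Tpi1) read 1439.9 in hypoxia with poly I:C, 502 in normoxia with poly I:C, 847 in hypoxia in media and 165 in normoxia in media. For Tpi1 poly I:C and hypoxia together gave the highest of the 4 levels. Phosphoglycerate mutase (Pgam1) read 494 against 169 (1.55), the lactate exporter Slc16a3 461 against 209 (1.14) and Pdk1, the kinase that closes the entry of pyruvate into mitochondria, 83.2 against 28.5 (1.55). The bright genes Eno1 (0.93), Aldoa (0.84), Pkm (0.81) and Ldha (0.71) stayed below 2-fold, and Gapdh, at 4554 against 4113, differed by 0.15. Several of these enzymes have processed gene copies that short probes can also read, and that share of the signal was not tested. Bsg, the chaperone of lactate transporters, was also higher (279.9 against 88.7, 1.66). It belonged to no list.

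Several glycogen genes shared this direction, and 80% of those tested were called higher, against 4.49% of all tested genes. Of 5 tested, 4 were higher: glycogen synthase Gys1 (193 against 26.6, 2.86), the branching enzyme Gbe1 (99.1 against 37.4, 1.41), phosphoglucomutase Pgm1 (285 against 83.9, 1.77) and the phosphorylase Pygl (147 against 55.4, 1.41). The fifth, the glycogenin gene Gyg, differed by 0.16. Genes of synthesis and of breakdown were both among them. Gys1, Gbe1 and Pygl reached the floor in hypoxia only, a further 15 of the 20 listed genes were not tested, and the list median of 1.41 was 0.14 with no floor. All 4 tested genes of mitochondrial hypoxia proteins and mitophagy were higher, namely the mitophagy receptors Bnip3 (265 against 73.0, 1.86) and Bnip3l (394 against 168, 1.23, with its second probe set at 1.18), Fam162a (299 against 52.2, 2.52) and Pdk1. Vdac1, the main channel of the outer mitochondrial membrane, read 197 against 69.5 (1.5) and Ak3l1, an adenylate kinase gene as the file names it, 74.2 against 13.8 (2.43). Ak3l1 resembles Ak4, and the array may not separate them. Of the 4 genes of mitochondrial hypoxia proteins, 2 read under 64 in normoxia, which favours a call on the higher side. The median of that list was 1.70, or 0.84 with no floor.

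Enzymes that use oxygen to hydroxylate proteins or to demethylate histones formed another group. Of 13 tested genes 6 were higher (46.2%, against 4.49% of all tested genes), none was lower, and the median stood at 0.94. However, 6 of the 13 were under 64 in normoxia, and with no floor the median was 0.27. P4ha2, a collagen prolyl hydroxylase subunit gene, read 82.6 in hypoxia with poly I:C, 6.27 in normoxia with poly I:C, 35.7 in hypoxia in media and 3.84 in normoxia in media (3.72). Its level was highest where hypoxia and poly I:C were combined, and it was dim on both normoxic arrays. P4ha1, the other main catalytic subunit, read 350.4 against 161 (1.12), the shared beta subunit P4hb 432 against 197 (1.13) and the lysyl hydroxylase Plod1 141 against 47.3 (1.57). The histone demethylase genes Kdm3a (1.39) and Kdm5b (1.34) were higher, while Kdm4a (-0.06), Kdm3b (-0.11), Kdm7a (-0.58) and Jmjd1c (-0.75) were not called. The RNA demethylase gene Alkbh5, outside the list, read 218 against 87.1 (1.32). Ero1a, the oxidase that supplies disulfide bonds in the endoplasmic reticulum, read 820.2 in hypoxia with poly I:C, 133 in normoxia with poly I:C, 863 in hypoxia in media and 47.8 in normoxia in media (2.63). Ero1a and P4hb were the called genes among 16 tested genes of folding and the unfolded protein response, whose median was -0.02. The chaperone genes Hspa5 (-0.24) and Calr (-0.19) and the stress factor genes Xbp1 (-0.02) and Atf4 (-0.00) were not called.

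Genes for vessel growth and for arginine use did not go one way. Vegfa, the vascular endothelial growth factor gene, read 204 in hypoxia with poly I:C, 75.2 in normoxia with poly I:C, 214 in hypoxia in media and 27.3 in normoxia in media (1.44). The hypoxic levels were close to each other, and the normoxic level was higher with poly I:C. Edn1, which encodes the vasoconstrictor endothelin 1 and stands among the HIF targets, was lower at 14.9 against 78.0 (-2.39). In media Edn1 read 4.39 against 12.8, so the normoxic array with poly I:C was the only one on which it reached the floor. Igf1 (80.0 against 156, -0.96), the neuropilin gene Nrp2 (-0.52) and Tgfb1 (-0.41) stayed under 2-fold, and 4 of the 5 tested genes of this list had differences below 0. Arg1, which encodes arginase 1, read 187 in hypoxia with poly I:C, 36.4 in normoxia with poly I:C, 796 in hypoxia in media and 5.76 in normoxia in media (2.36). Nos2, the inducible nitric oxide synthase that competes for the same substrate, read 274, 72.4, 27.2 and 3.56 in the same order (1.92). Both were higher in hypoxia, but Arg1 was brightest in media and Nos2 with poly I:C. The arginine transporter gene Slc7a2 stood at 583 against 540.0 (0.11) with poly I:C and at 832 against 82.3 in media. The other tested genes of the list, Odc1, Sat1 and Azin1, lay between -0.46 and 0.49.

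**Figure D2:**
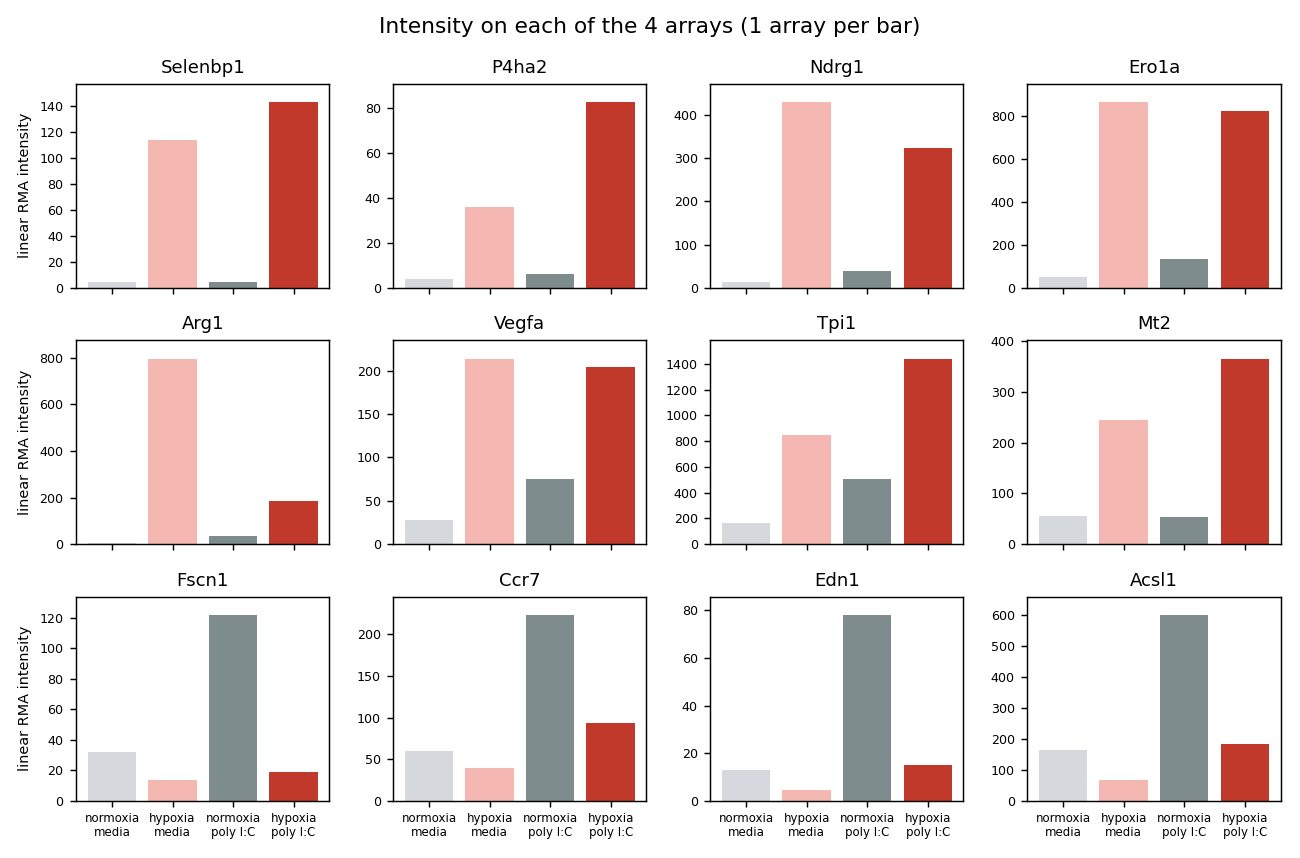
Linear RMA intensity of 12 genes on each of the 4 arrays, 1 array per bar, each panel with its own vertical axis from 0. Selenbp1, P4ha2, Tpi1 and Mt2 are highest with hypoxia and poly I:C together, Arg1 is highest in hypoxia in media (796), and Fscn1, Ccr7, Edn1 and Acsl1 are highest in normoxia with poly I:C.

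Both tested metallothionein genes were higher. Metallothioneins are small proteins that bind zinc and other metals. Mt2 read 365 in hypoxia with poly I:C, 52.5 in normoxia with poly I:C, 244 in hypoxia in media and 54.7 in normoxia in media (2.80), and Mt1 read 240.0, 80.8, 349 and 172 (1.57). The zinc transporter genes Slc39a1 (-0.16) and Slc30a7 (-0.42) did not share the increase, and the copper importer gene Slc31a1 was higher (85.2 against 36.1, 1.24). Among 18 antioxidant genes 1 was higher, the heme oxygenase gene Hmox1 (601 against 281, 1.09), and 1 was lower, the cystine transporter gene Slc7a11 (191 against 386, -1.02). Each was 5.56% of the antioxidant list, against 4.49% of all tested genes higher and 3.21% lower. The median of the antioxidant list was -0.20, with Prdx6 at 0.98, the catalase gene Cat at -0.95, G6pdx at -0.88 and Txnrd1 at -0.78. The ferritin genes Fth1 (-0.03) and Ftl1 (-0.19) were nearly level, and Alas1, the first enzyme of heme synthesis, was lower (416 against 832, -1.0).

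Promoter sequences are shown for leading genes of each direction so that the letters can be set beside these values. They are RefSeq promoters of GRCm38.p6, from 250 bases before to 50 after the gene start, in the direction of the gene. Capitals mark the core of the HIF response element, ACGTG or GCGTG on either strand, in the first set. Where such cores overlap, the run of capitals covers both.

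Selenbp1 (chr3:94932833-94933132, + strand): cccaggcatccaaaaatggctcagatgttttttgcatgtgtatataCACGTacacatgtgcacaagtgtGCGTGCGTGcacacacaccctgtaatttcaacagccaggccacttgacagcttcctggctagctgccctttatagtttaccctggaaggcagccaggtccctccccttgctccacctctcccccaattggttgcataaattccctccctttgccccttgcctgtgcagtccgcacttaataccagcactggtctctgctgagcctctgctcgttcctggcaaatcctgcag
Egln3 (chr12:54203825-54204124, - strand): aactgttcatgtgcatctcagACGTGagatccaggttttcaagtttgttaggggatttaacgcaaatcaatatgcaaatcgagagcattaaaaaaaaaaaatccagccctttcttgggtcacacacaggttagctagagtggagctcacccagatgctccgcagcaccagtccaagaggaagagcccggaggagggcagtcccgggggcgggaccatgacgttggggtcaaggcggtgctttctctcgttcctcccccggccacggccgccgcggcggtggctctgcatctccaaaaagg
P4ha2 (chr11:54100674-54100973, + strand): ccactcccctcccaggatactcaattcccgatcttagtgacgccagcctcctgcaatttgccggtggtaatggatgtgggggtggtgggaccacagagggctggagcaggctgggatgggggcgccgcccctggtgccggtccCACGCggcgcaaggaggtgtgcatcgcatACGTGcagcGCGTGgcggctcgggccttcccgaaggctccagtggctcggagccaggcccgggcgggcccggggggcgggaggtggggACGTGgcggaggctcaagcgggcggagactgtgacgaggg
Hilpda (chr6:29272376-29272675, + strand): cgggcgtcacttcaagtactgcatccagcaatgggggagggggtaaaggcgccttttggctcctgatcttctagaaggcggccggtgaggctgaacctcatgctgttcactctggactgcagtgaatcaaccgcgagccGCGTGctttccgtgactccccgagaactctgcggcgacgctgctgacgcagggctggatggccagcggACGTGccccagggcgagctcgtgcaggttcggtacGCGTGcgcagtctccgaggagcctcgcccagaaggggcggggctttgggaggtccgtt
Gys1 (chr7:45434589-45434888, + strand): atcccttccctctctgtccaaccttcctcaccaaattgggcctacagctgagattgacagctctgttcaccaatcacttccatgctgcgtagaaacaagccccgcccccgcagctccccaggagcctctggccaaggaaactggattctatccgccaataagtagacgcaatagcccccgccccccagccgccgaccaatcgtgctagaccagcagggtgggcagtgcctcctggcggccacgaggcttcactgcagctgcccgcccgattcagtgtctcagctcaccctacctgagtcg
Fscn1 (chr5:142960105-142960404, + strand): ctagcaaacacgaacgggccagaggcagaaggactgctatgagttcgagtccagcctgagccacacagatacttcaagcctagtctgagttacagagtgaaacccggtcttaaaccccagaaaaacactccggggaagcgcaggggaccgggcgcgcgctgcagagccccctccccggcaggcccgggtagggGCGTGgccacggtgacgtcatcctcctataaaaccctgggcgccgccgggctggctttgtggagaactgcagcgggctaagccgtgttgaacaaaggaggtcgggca
Apol7c (chr15:77533266-77533565, - strand): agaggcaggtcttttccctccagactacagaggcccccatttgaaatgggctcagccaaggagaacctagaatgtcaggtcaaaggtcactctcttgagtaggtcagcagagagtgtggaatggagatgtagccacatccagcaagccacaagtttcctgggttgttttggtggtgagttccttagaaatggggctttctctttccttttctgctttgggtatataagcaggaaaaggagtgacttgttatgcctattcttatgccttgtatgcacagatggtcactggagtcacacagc

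The script found 3 cores in the Selenbp1 window, 1 in that of Egln3, 4 in that of P4ha2 and 3 in the Hilpda promoter shown, while the other Hilpda promoter in the table had 1. Gys1, also among the largest increases, had none in this window. Fscn1, which was lower, had 1, and Apol7c, with the largest decrease, had none. Such a short core is common. At least 1 was found in 70.7% of 92 promoters of the higher genes, 65.2% of 66 promoters of the lower genes, 62.4% of 2181 promoters of all tested genes and 43.8% of 32851 promoters in the table. The share was 79.5% of 44 promoters of the tested HIF targets. The table held a promoter for 74 of the 102 higher genes, 55 of the 73 lower genes and 1712 of the 2274 tested genes. A match describes letters in a window and is neither a site nor a cause.

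The metallothionein promoters are shown with another motif in capitals, the core of the metal response element, TGCACNC or TGCGCNC on either strand.

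Mt1 (chr8:94178839-94179138, + strand): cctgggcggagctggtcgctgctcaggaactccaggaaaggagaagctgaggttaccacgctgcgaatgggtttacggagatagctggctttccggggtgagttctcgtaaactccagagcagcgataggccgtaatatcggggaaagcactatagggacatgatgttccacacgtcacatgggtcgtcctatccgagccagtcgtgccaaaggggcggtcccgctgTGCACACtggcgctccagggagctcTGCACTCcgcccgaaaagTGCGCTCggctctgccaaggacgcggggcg
Mt2 (chr8:94172368-94172667, + strand): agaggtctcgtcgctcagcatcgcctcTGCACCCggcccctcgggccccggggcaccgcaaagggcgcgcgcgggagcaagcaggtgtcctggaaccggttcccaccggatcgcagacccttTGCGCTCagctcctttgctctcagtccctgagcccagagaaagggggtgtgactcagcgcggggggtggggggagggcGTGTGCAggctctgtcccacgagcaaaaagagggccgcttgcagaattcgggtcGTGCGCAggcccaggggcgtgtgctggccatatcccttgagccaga

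Mt1 held 3 of these cores and Mt2 held 4. Each of these promoters also held 2 HIF cores, which are not marked here, and in Mt2 one of them overlaps a metal core, so that part of it is in capitals. The metal core occurred in 47.8% of the promoters of the higher genes, 27.3% of those of the lower genes and 33.1% of those of all tested genes.

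The listed interferon-stimulated genes, the main readout of double-stranded RNA, were bright on both poly I:C arrays and nearly level between them. The list was chosen with earlier results of these data known. Of 71 tested genes none reached 2-fold in either direction, against 7.7% of all tested genes. Of the 71, 60 lay within 0.5 of 0 on the log2 scale (84.5%, against 70.9% of all tested genes). The median difference was 0.11 with a range from -0.79 to 0.82. The median intensity of the 71 genes was 318 in hypoxia and 288 in normoxia with poly I:C. Ifit1 read 712 against 630.5, Irf7, the factor that amplifies interferon genes, 903 against 796, and Rsad2, which encodes viperin, 1166 against 1403. The widest differences belonged to the GTPase gene Iigp1 (307 against 175, 0.82) on one side, and to the chemokine gene Cxcl9 (70.6 against 122, -0.79) and Oasl1 (325 against 547, -0.75) on the other. In media 27 of the same 71 genes were lower in hypoxia and 1 was higher, with a median of -0.90, at median intensities of 14.7 and 30.9, which are under the floor. Of all tested genes 6.02% were lower and 5.63% higher in media. None of 16 type I and type III interferon genes reached the floor on either poly I:C array. The interferon response element (GAAA, any 2 bases and GAAA again) was found on either strand in 43.3% of 67 promoters of the tested interferon-stimulated genes against 6.24% of those of all tested genes.

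The sensors themselves were also nearly level, with 7.14% of those tested called higher, against 4.49% of all tested genes. Among 14 tested genes of double-stranded RNA sensing 1 was higher, Ticam2, an adaptor gene of Toll-like receptor 4 (67.8 against 29.2, 1.21), and the median was 0.16, or -0.03 with a floor of 2 times 64. Ddx58, which encodes RIG-I, read 344 against 377 (-0.13), Ifih1, which encodes MDA5, 260.4 against 284 (-0.13), and the kinase gene Eif2ak2 145 against 95.1 (0.61). Outside the lists, Trim12c, a gene of the TRIM family (66.7 against 29.3, 1.19), and Tyk2, which encodes a kinase of the interferon receptor (67.9 against 31.2, 1.12), were higher. Of 25 tested genes of MHC class I presentation none was called, 19 had differences above 0, and the median was 0.35. H2-Q6 (1056 against 533, 0.99) and the peptide transporter gene Tap2 (187 against 97.52, 0.94) were nearest to 2-fold, while B2m stood at 2389.9 against 2452 (-0.04). H2-K2, which belonged to no list, was called higher (68.4 against 17.5, 1.96). Class I genes are close copies of each other, and the array may not separate them. The 9 tested genes of the class II pathway had a median of 0.41 with no call, from H2-Ab1 (1402 against 818, 0.78) to the protease gene Lgmn (153 against 285, -0.89).

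**Figure D3:**
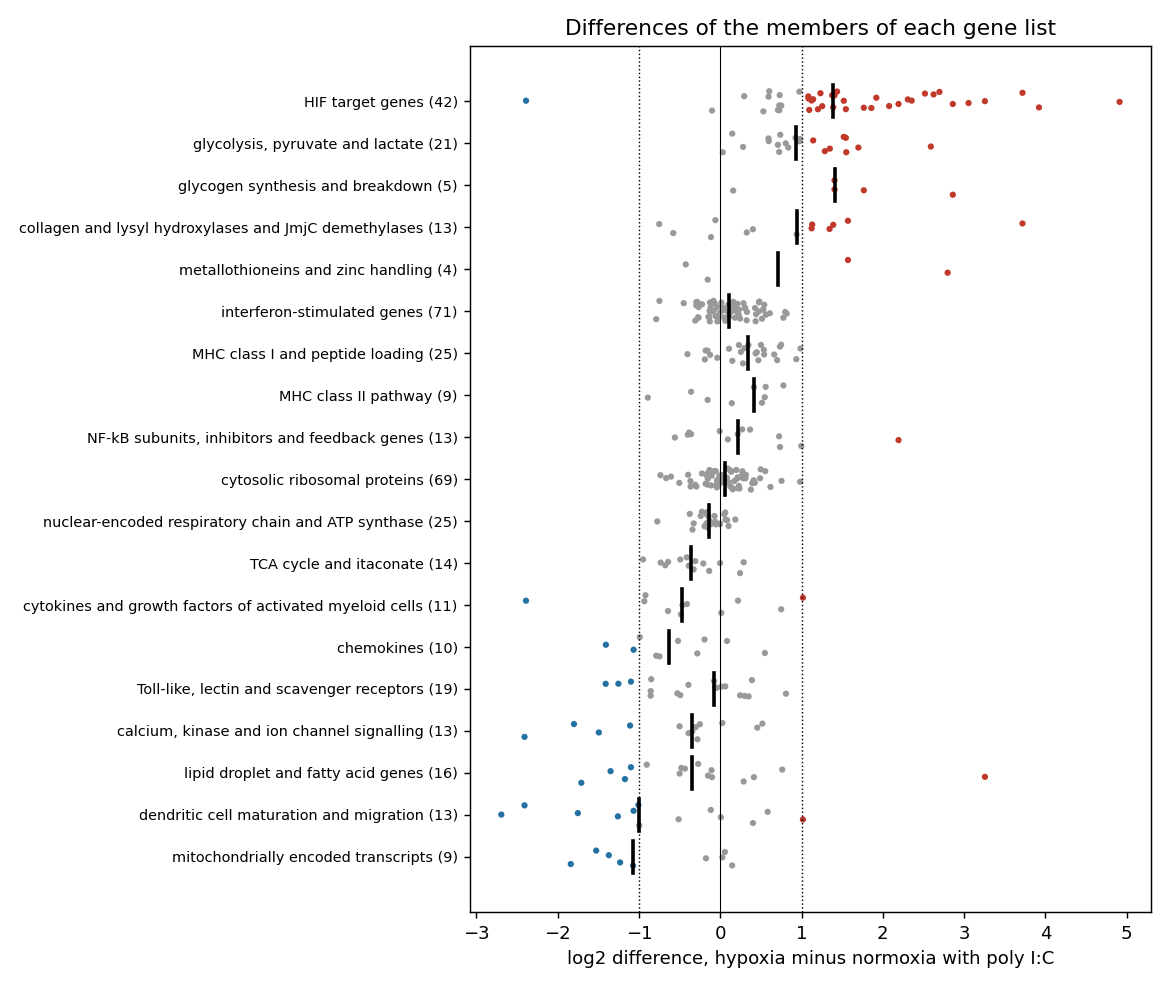
Log2 difference, hypoxia minus normoxia with poly I:C, of each tested member of 19 gene lists (number tested in brackets), with a bar at the list median and dotted lines at 2-fold; vertical scatter within a row carries no value. HIF targets, apart from Edn1 and Plin2, and glycogen genes lie to the right of 0, the 71 interferon-stimulated genes all lie between the dotted lines, and the medians of maturation genes and mitochondrially encoded transcripts lie furthest to the left.

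Inflammatory genes split member by member. The shares called higher were 7.69% of NF-kB genes, 9.09% of cytokine genes and 4% of receptor genes, against 4.49% of all tested genes. The shares called lower were 9.09% of cytokine genes and 4% of receptor genes, against 3.21% of all tested genes. Of 13 tested NF-kB genes 1 was higher, Ier3, and the median was 0.21, or -0.07 with a floor of 2 times 64. Ptgs2, the inducible cyclooxygenase, read 157 against 78.7 (1.0), just under the threshold, the inhibitor gene Nfkbia read 215 against 130 (0.72) and the subunit gene Rel 119 against 175 (-0.56). Of 11 tested cytokine genes Il15, which sustains natural killer and memory T cells, was higher (164 against 81.0, 1.02) and Edn1 was lower, with a median of -0.47 that turned to 0.012 with no floor. Il1b read 247 against 147 (0.75), Tnf 100.4 against 190.2 (-0.92) and Inhba, which encodes activin A, 143 against 274 (-0.93). Thus Il1b and Tnf lay on opposite sides of 0, both under 2-fold. Of 10 tested chemokine genes 2 were lower (20%, against 3.21% of all tested genes) and none was higher, with a median of -0.63, or -0.24 with no floor. Ccl2, which attracts monocytes, read 47.7 in hypoxia with poly I:C, 127 in normoxia with poly I:C, 3.51 in hypoxia in media and 74.5 in normoxia in media (-1.41). Ccl22, which attracts regulatory T cells, read 97.7 against 205 (-1.07). The brightest chemokine gene, Ccl5, was level at 3345 against 3157 (0.08), as was Cxcl10 at 1002 against 1218 (-0.28), and Ccl3 stood at 282 against 560.0 (-0.99). Among 25 receptor genes of chemokines and cytokines 1 was higher and 1 was lower. The higher one was Tnfrsf9, which encodes the costimulatory receptor 4-1BB, at 437 in hypoxia with poly I:C, 98.0 in normoxia with poly I:C, 436 in hypoxia in media and 18.8 in normoxia in media (2.16). Its hypoxic levels were nearly the same with and without poly I:C. The interferon receptor genes Ifnar1 (0.01) and Ifnar2 (0.26) were not called.

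Maturation genes of dendritic cells lay mostly on the lower side. Of 13 tested members 6 were lower (46.2%, against 3.21% of all tested genes) and 1, Il15, was higher (7.69%, against 4.49%). The median was -1.0. Of the 13, 5 read under 64 in hypoxia and none did in normoxia, and with a floor of 32, or of 2 times 64, the median was -0.51 or -0.56. Fscn1, which encodes fascin, a bundler of actin in dendrites of mature cells, read 18.8 in hypoxia with poly I:C, 122 in normoxia with poly I:C, 13.5 in hypoxia in media and 31.8 in normoxia in media (-2.69). Ccr7, the receptor that guides dendritic cells to lymph nodes, read 93.2, 223, 39.7 and 59.9 (-1.26). In both cases the normoxic array with poly I:C was the highest of the 4. Cacnb3, a calcium channel subunit gene, read 15.9 against 84.2 (-2.41), the membrane-cytoskeleton linker Marcks 40.1 against 135 (-1.75) and Tmem123 156 against 313 (-1.01). Other maturation genes did not take part. The costimulatory gene Cd86 read 312 against 236 (0.40), Cd274, which encodes PD-L1, 582 against 579 (0.01) and Marcksl1 388 against 420.2 (-0.12). Beside this list, 1 of the 4 tested dendritic cell markers was lower, Ccr7 itself, and of the 13 tested macrophage markers 1 was lower, the phagocytic receptor gene Mertk (41.2 against 93.6, -1.18), and none was higher. Adgre1, which encodes F4/80, read 50.5 against 96.8 (-0.94). The eosinophil-associated ribonuclease genes Ear1 and Ear2, close copies, stood at 0.53 and 1.0, and the erythroid marker Car2, a carbonic anhydrase gene, at -1.12 (76.8 against 167). The part of such cells in the result was not tested.

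Surface receptors and signalling genes were called in small numbers per list, to be read against 3.21% of all tested genes lower and 4.49% higher. Of 19 Toll-like, lectin and scavenger receptor genes 3 were lower and none higher. They were Clec5a, an activating lectin receptor gene (161 against 427, -1.41), Clec7a, which encodes the beta-glucan receptor dectin-1 (187 against 445, -1.25), and the fatty acid and lipoprotein receptor gene Cd36 (182 against 389.7, -1.1). Cd14 read 328 against 188 (0.81) and Tlr2 265 against 208 (0.35), and the median of this list was -0.08. Among 19 Fc, Cd300 and paired receptors, Cd300ld (21.9 against 89.8, -2.04) and Cd300lb (31.0 against 82.0, -1.40) were lower, whereas the activating receptor gene Trem1 read 97.9 against 50.9 (0.94) and the Fc receptor gene Fcgr1 649.9 against 666 (-0.04). Of 13 tested genes of calcium, kinase and ion channel signalling 4 were lower and none higher: Cacnb3, the potassium channel gene Kcnk6 (22.4 against 78.0, -1.80) and the nucleotide receptor genes P2ry6 (-1.49) and P2ry13 (-1.11). Their relative P2ry14 was level (205 against 202, 0.03). All 4 lower genes of this list read under the floor in hypoxia, and none of the 13 did in normoxia, which favours a call on the lower side. Adhesion genes went both ways, with Tgfbi, a matrix protein (96.5 against 306, -1.67), and the integrin gene Itgal (37.8 against 75.6, -1.0) lower and the junction molecule gene F11r higher (224 against 93.2, 1.26), among 21 tested. Of 20 proteases and inhibitors 1 was higher and 3 were lower, the inhibitor gene Spint1 (31.0 against 116, -1.91) and the metalloproteinase genes Mmp25 (-1.37) and Mmp19 (-1.18). Mmp12, the brightest of this list, was level at 2095 against 2378 (-0.18). The 3 lower genes of this list also reached the floor in normoxia only, as did Cd300ld, Cd300lb and Itgal above. Of the 20 proteases and inhibitors, 6 read under the floor in hypoxia and 1 in normoxia.

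Lipid genes were called in both directions. Of 16 tested 4 were lower (25%, against 3.21% of all tested genes) and 1, Hilpda, was higher (6.25%, against 4.49%), with a median of -0.35. Acsl1, which activates long-chain fatty acids, read 184 in hypoxia with poly I:C, 601 in normoxia with poly I:C, 66.6 in hypoxia in media and 166 in normoxia in media (-1.71). Lipa, the lysosomal acid lipase gene, read 328 against 835 (-1.35), the elongase gene Elovl5 38.2 against 86.1 (-1.17), and lipoprotein lipase, Lpl, 438 against 821 (-0.91). For Acsl1 the normoxic array was the higher one both with poly I:C and in media. Of 11 cholesterol genes 1 was higher, Insig2, and none was lower (median -0.08, or 0.15 with no floor), and of 6 prostaglandin and leukotriene genes none was called (median -0.33, or 0.07 with no floor). None of the 14 tested genes of the citric acid cycle and itaconate was called, yet 12 lay below 0 and the median was -0.36, from Acly (0.29) to Idh1 (94.4 against 182, -0.95). Acod1, which makes itaconate, read 985 against 1312 (-0.41).

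Mitochondrially encoded transcripts divided into those that were lower and those that were level. Of 9 tested, 5 were lower (55.6%, against 3.21% of all tested genes), all of them subunits of complex I or III. CYTB, the cytochrome b gene, read 309.6 in hypoxia with poly I:C, 1108 in normoxia with poly I:C, 2264 in hypoxia in media and 3456 in normoxia in media (-1.84). ND5 read 254 against 657 (-1.37), ND1 272 against 573 (-1.07) and ND4L 158 against 454 (-1.53, with its second probe set at -1.5). For these transcripts the 4 arrays had the same order, with normoxia in media highest and hypoxia with poly I:C lowest. ND3 is uncertain, because its brighter probe set read 33.4 against 78.6 (-1.23) and its other probe set 36.5 against 33.7 (0.12). The complex IV genes COX1 (2362 against 2669, -0.18) and COX2 (1053 against 1035, 0.03), the ATP synthase gene ATP6 (972 against 934, 0.06) and ND6 (233 against 211, 0.15), the tested member that is transcribed from the opposite strand, were level. The list median of -1.07 became -0.62 when probe sets of a gene were averaged. The nuclear-encoded subunits of the same complexes were level, with none of 25 called, 24 within 0.5 of 0 and a median of -0.14. Mitochondrial transcripts are made from long shared precursors and many have nuclear copies, so the probe sets are not independent.

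**Figure D4:**
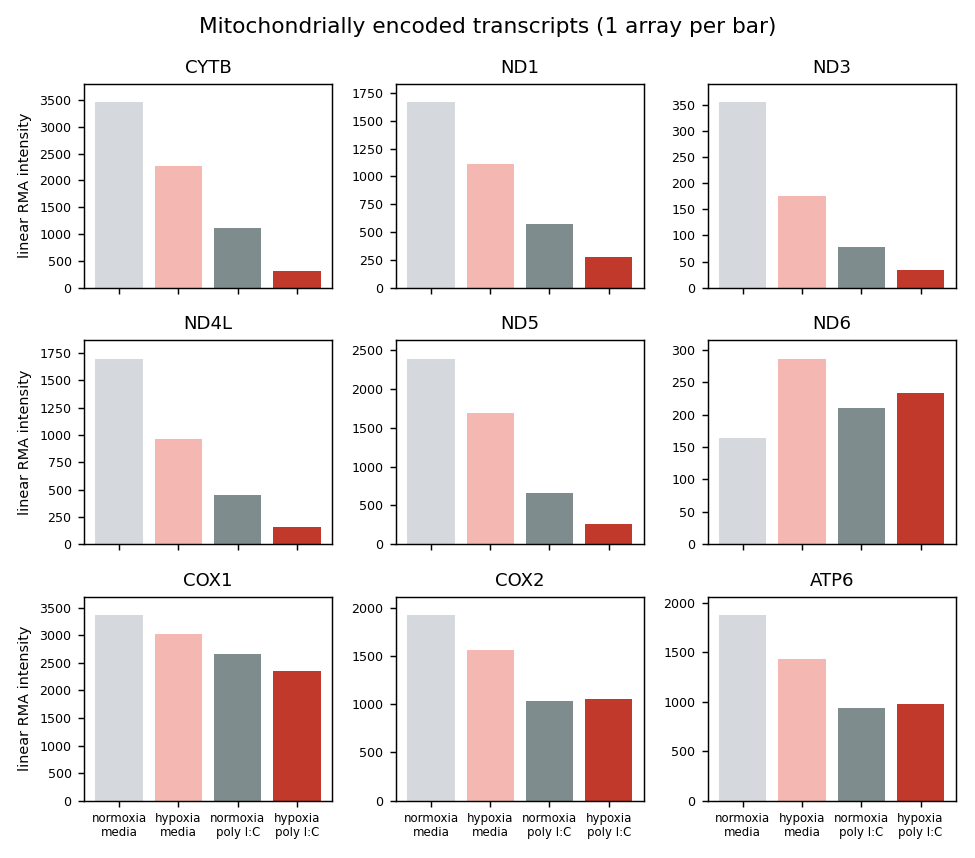
Linear RMA intensity of the 9 tested mitochondrially encoded transcripts on each of the 4 arrays, 1 array per bar, each panel with its own vertical axis from 0. CYTB, ND1, ND3, ND4L and ND5 step down from normoxia in media to hypoxia with poly I:C, while COX1, COX2 and ATP6 differ little between the poly I:C arrays and ND6 is lowest in normoxia in media.

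Ribosomal protein genes differed little, while translation factor genes lay mostly below 0. Of 69 cytosolic ribosomal protein genes none was called, 61 lay within 0.5 of 0, and the median was 0.06. Of 21 translation factor genes 1 was higher (4.76%, against 4.49% of all tested genes), Eif4ebp1, a repressor of cap-dependent translation (81.9 against 30.5, 1.42). The median of the 21 was -0.28, with Eif2s3x at -0.94. Of these genes 16 lay below 0, and 14 lay within 0.5 of 0 (66.7%, against 70.9% of all tested genes). Of 12 genes of the amino acid response 3 were lower (25%, against 3.21% of all tested genes) and none higher, the asparagine synthetase gene Asns (31.2 against 66.5, -1.09), the glutamine transporter gene Slc38a2 (45.4 against 93.9, -1.05) and Slc7a11. Of the 12, 4 read under 64 in hypoxia, Asns and Slc38a2 among them, and none did in normoxia, which favours a call on the lower side. No gene was called among 12 heat shock proteins (median -0.29), 12 apoptosis regulators (median near 0, with Casp4 at 0.95 and Cflar at -0.61), 7 histone genes or 12 reference genes, of which Actb read 3231 against 4255 (-0.40), Ppia 690.4 against 671 (0.04) and Hprt 92.1 against 49.6 (0.89). The calls that follow are to be read against 4.49% of all tested genes higher and 3.21% lower. Of 35 lysosomal genes Ctsk, the cathepsin K gene, was higher (161 against 78.8, 1.03) and Lipa lower, each 2.86% of the list. Of 6 genes of replication and the cell cycle the cyclin gene Ccnd1 was lower (37.0 against 93.5, -1.34), while the inhibitor genes Cdkn1a (0.88) and Cdkn1b (0.94) were not called. Among 13 myeloid transcription factor genes Jun was higher (84.3 against 34.8, 1.28) and Irf8, a lineage factor of dendritic cells and monocytes, was lower. Irf8 read 57.4 in hypoxia with poly I:C, 120.1 in normoxia with poly I:C, 63.4 in hypoxia in media and 43.5 in normoxia in media (-1.07), so that only the normoxic array with poly I:C stood apart. Spi1, which encodes PU.1, read 111 against 142 (-0.35).

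Of the 175 called genes, 82 belonged to a list and 93 to none. Unlisted genes among the largest increases were Impa2, an inositol monophosphatase gene (153 against 24.2, 2.66), the Wnt receptor gene Fzd1 (88.5 against 21.6, 2.03), Appl2, which encodes an endosomal adaptor (103 against 26.6, 1.95), and the U3 small nucleolar RNA gene Rnu3b1 (78.5 against 19.96, 1.98), for which 4 probe sets carried identical values. Apol7c, an apolipoprotein L family gene, had the largest decrease, at 13.5 in hypoxia with poly I:C, 201 in normoxia with poly I:C, 9.16 in hypoxia in media and 90.2 in normoxia in media (-3.89). It was bright on both normoxic arrays and dim on both hypoxic ones. Further unlisted genes among the largest decreases were Cmklr1, the receptor gene for chemerin (20.8 against 72.0, -1.79), the adhesion receptor gene Adgre4 (37.9 against 130.4, -1.78), Ms4a6b (112 against 384, -1.78), the GTPase gene Gtpbp4 (20.6 against 65.2, -1.66), Cyria, which encodes a Rac1-binding protein (22.4 against 66.1, -1.56), the calcium-binding grancalcin gene Gca (-1.5) and Mylip, which targets the LDL receptor for degradation (26.1 against 69.4, -1.41).

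The same 2274 genes were then set against the hypoxia difference in media, which uses the other arrays and shares none with the comparison above. In media 5.63% of these genes were higher and 6.02% (137 genes) lower, 11.7% in all. The differences correlated across the 2274 genes with r = 0.652 and rho = 0.536, a description only, since the 4 arrays were normalized together and genes are not replicates. Of the 102 genes higher with poly I:C, 72 (70.6%) were also higher in media, which is 56.3% of the genes higher in media. Of the 73 lower genes, 27 (37.0%) were also lower in media, which is 19.7% of the genes lower there. One gene, Trim12c, was higher with poly I:C and lower in media (6.78 against 17.8, -1.39), and no gene had the opposite pair of calls. The genes higher in media had a median of 1.55 there and 1.1 with poly I:C, and the 137 lower ones had medians of -1.35 and -0.36. The floor was set on the poly I:C arrays, so genes that are bright in media alone are not among them.

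**Figure D5:**
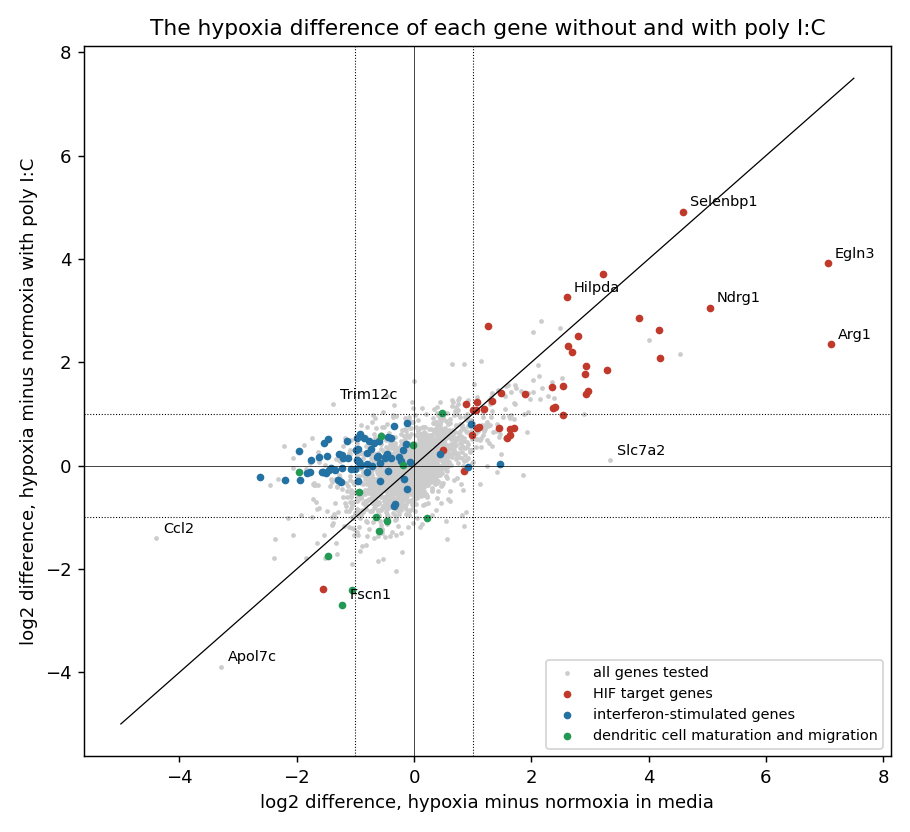
Log2 difference of hypoxia minus normoxia in media (horizontal) and with poly I:C (vertical) for the 2274 genes, with HIF targets, interferon-stimulated genes and dendritic cell maturation genes coloured; the solid line marks equal differences and dotted lines 2-fold. Most HIF targets lie right of the solid line, 34 of 42 against 1065 of all 2274 genes, and the interferon-stimulated genes lie in a flat band, mostly left of 0.

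For HIF targets the media difference was the larger one in 34 of 42 genes, against 1065 of all 2274. Their median was 2.37 in media and 1.38 with poly I:C. The levels behind this differed mainly in normoxia. The median intensity of the 42 genes was 222 in hypoxia with poly I:C and 214 in hypoxia in media, and 72.7 in normoxia with poly I:C and 37.7 in normoxia in media. The hypoxic arrays were within 2-fold of each other for 35 of the 42 genes, against 1715 of all 2274, and normoxia with poly I:C stood above normoxia in media for 38 of the 42, for 19 of them by 2-fold or more, against 1292 and 406 of all 2274. The 21 tested glycolysis genes had medians of 1.64 in media and 0.93 with poly I:C. P4ha2, Selenbp1 and Hilpda were among the exceptions, with media differences of 3.22, 4.59 and 2.61, below those with poly I:C. Mt2, which is in neither list, also had the smaller difference in media (2.16). Maturation genes had a median of -0.59 in media and -1.0 with poly I:C.

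The difference with poly I:C minus that in media was lowest for Arg1 (-4.76), followed by Slc7a2 (-3.23), Egln3 (-3.13), Tnfrsf9 (-2.37), Ankrd37 (-2.12), the phospholipid transfer protein gene Pltp (-2.04), Mmp19 (-2.02), Ndrg1 (-1.99), Mylip (-1.97) and the kallikrein gene Klk1b11 (-1.90). Arginase and the arginine transporter thus headed this order. Pltp read 121 in hypoxia with poly I:C, 137 in normoxia with poly I:C, 595 in hypoxia in media and 164 in normoxia in media, so only the hypoxic array in media was high. It was highest for Ccl2 (3.0), Ifi206 (2.61), Trim12c (2.58), Rtp4 (2.40), AI506816 (2.29), Phf11d (2.28), Ifi203 (2.24), the complement factor B gene Cfb (2.21), Ly6i (2.08) and Aoah (2.06). Rtp4, which is interferon-stimulated, read 236 and 276 in hypoxia and normoxia with poly I:C, and 10.3 and 63.5 in media, so it was bright on both arrays with poly I:C. Some of these values rest on media readings near or below the array medians of 3.90 to 4.09, where neither size nor rank is firm. Hypoxia in media read 3.51 for Ccl2, 3.42 for Ifi206 and 3.91 for Phf11d, and normoxia in media read 3.81 for Egln3 and 5.76 for Arg1. Over all 2274 genes this quantity had a robust SD of 0.43 (scaled median absolute deviation), and it has no replicate check.

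Some genes called with poly I:C were not called in media, and several of them had no usable signal there. Clic5, a chloride channel family gene, read 92.1 in hypoxia with poly I:C, 29.8 in normoxia with poly I:C, and 3.64 and 3.64 in media (1.63), so its media difference carries no information. The carbonic anhydrase gene Car4 (132 against 59.9, 1.14), the stress gene Nupr1 (93.1 against 36.7, 1.34), Ogfr (246 against 109, 1.17) and Gm4841 (82.0 against 37.9, 1.11) had media differences of 0.39, -0.46, -0.35 and -0.02, at media levels under the floor, where a difference cannot be read. Among lower genes Cd300ld (-0.30), Tgfbi (-0.20), Mertk (-0.11) and Adgre5 (45.9 against 99.2 with poly I:C, -1.11, and -0.02 in media) were bright enough in media to be read there and were not called there. Clic5, Car4, Nupr1, Ogfr, Gm4841 and Adgre5, as well as Bsg, Vdac1, Alkbh5, Slc31a1 and Tyk2 above, were chosen for naming after their values were seen.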

How the data were processed

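RNA of 4 conditions was measured on 1 array each. The deposited values are linear intensities of 28998 probe sets, which the authors normalized by RMA with Affymetrix Expression Console, per the submitters' processing notes (versions and annotation build not given in the sources used here). A label protocol also mentions nascent RNA, though the samples are labelled total RNA. A further 4 per-sample columns were not used.

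Probe sets were named through RefSeq accessions and symbols (GRCm38.p6 table): 18757 by accession, 2207 by symbol, 1750 by synonym, 2269 by the file's symbol; 163 with several genes and 3852 with none were left out. The brightest probe set stood for a gene (346 tested genes had several). Log2 differences were taken for genes at 64 or more on either poly I:C array, and called at 2-fold. Naming took the 25 largest differences each way, called members of 43 lists with up to 6 others, and the 10 largest differences of differences each way; a few genes it takes are not reported. Members and lists were chosen with earlier results of these data known, and lists share genes. Alternatives covered floor, scaling, pseudocount, probe sets and threshold. Steps were tested on simulated data. Python 3.11.15 with pandas 2.3.3, and R 4.3.3 with limma 3.58.1, were used.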

Additional observations from a re-analysis of the deposited data

Results flagged for a closer look

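Trim12c, a TRIM family gene, was 1.19 higher on the log2 scale in hypoxia with poly I:C (66.7 against 29.3) and lower in hypoxia in media (6.78 against 17.8, -1.39). It was picked out because the arrays moved in opposite directions by 2-fold or more, and the difference was not tested, since each condition has 1 array. The media levels were under the floor of 64.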

How the results depend on the processing

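With 102 genes higher and 73 lower as reported, the counts were 153 and 127 with a floor of 32, 51 and 27 with a floor of 2 times 64, and 264 and 271 with no floor. With the floor set on the mean of both arrays they were 68 and 47, and on the log2(intensity + 16) scale 71 and 39. At 1.5-fold they were 266 and 259, and at 3-fold 30 and 15. Other scalings gave 92 to 114 higher and 64 to 84 lower. List medians not given above were, at the floor of 64, 0.71 for metallothioneins and zinc handling, 0.38 for arginine metabolism and -0.52 for angiogenic factors. With a floor of 32 the list medians were 0.65 for oxygen sensing, -0.29 for metallothioneins and zinc handling and -0.51 for maturation. With a floor of 2 times 64 they were 1.09 for arginine metabolism, 1.57 for metallothioneins and zinc handling, -0.56 for maturation, -0.91 for lipid genes and -0.62 for mitochondrially encoded transcripts. The last value was also found with the floor on the mean and with averaged probe sets. With no floor they were 0.34 for oxygen sensing, 0.14 for glycogen, 0.84 for mitochondrial hypoxia proteins, 0.27 for hydroxylases, 0 for angiogenic factors, -0.23 for metallothioneins and zinc handling, 0.012 for cytokines and -0.36 for maturation. A lower floor tests more dim genes. Values of single genes were recomputed for called genes only, and named genes that were not called were left out. No value of a called gene changed sign in 1764 recomputed values, and 27 moved by more than the spread over genes. The medians of 16 of 42 lists changed sign under some setting, among them those of NF-kB genes (lowest -0.07) and adhesion (lowest -0.06), while those of HIF targets (1.14 to 1.41), glycolysis (0.71 to 0.96) and interferon-stimulated genes (0.06 to 0.14) did not. Intensities under 64 limit every fold whose lower array is dim. No paired analysis was possible because each condition has 1 array.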
